A study of Homo sapiens with 6 samples.

Results

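The clustered protocadherins are cell surface adhesion proteins encoded in 3 adjacent gene clusters, alpha, beta and gamma, on the long arm of chromosome 5. Their mRNA was measured by RNA sequencing in T47D-YA cells, which derive from T47D, a luminal line of human breast cancer, and express the progesterone receptor in its A form. The 6 libraries fell into 3 groups of 2. The controls carried an empty vector, and the other 2 groups overexpressed fibroblast growth factor 2 (FGF2) either as its 18 kDa or as its 22.5 kDa isoform. Cells export the smaller isoform, whereas larger ones are found mainly in the nucleus. The sources used here give neither the vector's promoter nor whether each line was 1 clone or a pool. An effect of FGF2 and a difference between the lines that carry it cannot be told apart here. Statements that a level fell or rose with an isoform describe that group beside the controls. Members were chosen by gene symbol, as protein-coding genes named PCDHA, PCDHB or PCDHG, and the family was singled out with the counts of these same libraries already known. The calls and adjusted p-values below therefore describe the members and are no independent support for a change of the family. RefSeq lists 53 such genes, and 52 of the 23459 genes in the deposited table are among them: 15 alpha, 15 beta and 22 gamma members. PCDHB9 was not analysed here.

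Each alpha and gamma mRNA joins 1 variable first exon, which has its own promoter and encodes the extracellular cadherin repeats and the membrane anchor, to constant exons that all members of the cluster share. Beta genes consist of a single variable exon and share no constant exons. Promoter choice in neurons depends on the insulator protein CTCF, on cohesin and on DNA methylation, and gives each neuron its own set of surface proteins that bind like to like. The C-type members, PCDHAC1, PCDHAC2, PCDHGC3, PCDHGC4 and PCDHGC5, are expressed more uniformly in the brain, and silencing of the clusters by DNA methylation is known from several tumours, breast cancer among them.

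Most promoters of these genes carry a short conserved element around the letters CGCT, and stretches that hold it are shown here because members are transcribed from promoters of their own. RefSeq (GRCh38.p14) gave windows from 250 bases before to 50 after the start for 47 of the 53 genes. CGCT was found on either strand in 12 of 13 alpha, 14 of 14 beta and 20 of 20 gamma genes, and in 70.0% of all 35116 promoter windows of the same length, so the 4 letters alone do not set the family apart. The longer words below, which all hold CGCT, were 8-letter words found in the most members of a cluster and were picked from these windows. Ties were settled by alphabetical order, so other words can be as frequent. GGTGGCGC, for example, overlaps the beta word, lacks CGCT and is in the same beta genes. GTGGCGCT was found in 13 of 14 beta genes (all but PCDHB1) and in 1.15% of all windows. ATGTCGCT was found in 9 of 13 alpha genes and 0.234% of all windows, and GCCGCTGT in 11 of 20 gamma genes and 1.63% of all windows. Each of the 3 words was absent from the windows of the other 2 clusters. The sequences run 5′ to 3′ on the + strand, and capitals mark the word. Those of 3 of the 4 beta members that passed the test with both isoforms (PCDHB6 has no entry) were:
PCDHB5 (chr5:141135165-141135224): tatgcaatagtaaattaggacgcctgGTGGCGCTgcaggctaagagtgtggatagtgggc
PCDHB8 (chr5:141177750-141177809): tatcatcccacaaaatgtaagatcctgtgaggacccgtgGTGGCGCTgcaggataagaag
PCDHB16 (chr5:141182296-141182355): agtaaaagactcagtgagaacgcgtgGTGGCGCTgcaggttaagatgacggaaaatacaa

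Beta members that passed with 22.5 kDa FGF2 alone (PCDHB2, PCDHB13, PCDHB15) and the most abundant one that passed with neither (PCDHB14) carried the same 8 letters:
PCDHB2 (chr5:141094530-141094589): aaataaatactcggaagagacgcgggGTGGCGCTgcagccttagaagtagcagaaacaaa
PCDHB13 (chr5:141213851-141213910): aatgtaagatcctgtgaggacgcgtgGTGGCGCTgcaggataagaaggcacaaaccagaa
PCDHB15 (chr5:141245300-141245359): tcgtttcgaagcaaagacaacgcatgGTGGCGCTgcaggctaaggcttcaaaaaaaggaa
PCDHB14 (chr5:141223249-141223308): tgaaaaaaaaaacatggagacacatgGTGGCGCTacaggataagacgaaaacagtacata

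Among the gamma and alpha members with the most reads of their own, the stretches around the other words were:
PCDHGC3 (chr5:141475868-141475927): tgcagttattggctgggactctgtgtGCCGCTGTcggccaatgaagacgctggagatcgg
PCDHGA10 (chr5:141412919-141412978): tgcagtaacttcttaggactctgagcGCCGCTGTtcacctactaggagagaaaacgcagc
PCDHGA8 (chr5:141392556-141392615): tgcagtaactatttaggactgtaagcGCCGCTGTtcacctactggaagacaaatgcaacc
PCDHA4 (chr5:140806965-140807024): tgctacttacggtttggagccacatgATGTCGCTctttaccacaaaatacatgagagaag
PCDHA5 (chr5:140821528-140821587): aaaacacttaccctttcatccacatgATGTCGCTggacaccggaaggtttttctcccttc

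The word was thus in the windows of beta members that passed and of a beta member that did not. The other words searched were AGNNGGC, the central letters of the CTCF motif, and TATAAA, both on either strand. AGNNGGC was in 2 of 13 alpha, 8 of 14 beta and 7 of 20 gamma genes and in 64.2% of all windows. TATAAA was in 3, 1 and 2 genes of these clusters and in 11.5% of all windows.

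The counted totals were 5317687 to 6817324 reads per library, and levels are given as counts scaled to library size (CPM). The overexpressed gene, FGF2, was counted 12 and 13 times in the controls, 6259 and 4365 times in the 18 kDa group and 8731 and 7758 times in the 22.5 kDa group. Libraries of 1 group varied beyond counting error: chi-square over its degrees of freedom was 6.20 for controls and 14.3 for each FGF2 group. The 10 luminal markers summed to 15620 to 20490 CPM in the controls, 19260 to 22820 with 18 kDa FGF2 and 12350 to 15250 with 22.5 kDa FGF2, with none at 0. Because clustered protocadherins are best known from neurons, 11 neuronal markers were summed too. The sum was 109.9 to 123.9 CPM in the controls, 82.9 to 88.4 with 18 kDa FGF2 and 56.3 to 62.8 with 22.5 kDa FGF2, led by the tubulin gene TUBB3, with NEFM, STMN2 and ELAVL4 at 0. The 5 glial markers summed to 0 to 4.11 CPM, with S100B and OLIG2 at 0. The 8 fibroblast markers, led by the collagen gene COL1A1, summed to 52.2 to 60.6, 42.4 to 43.6 and 39.7 to 40.5 CPM in the 3 groups, with none at 0. The neuronal and fibroblast sums were thus lower in both FGF2 groups and the luminal sum was lower in the 22.5 kDa group, as many members were, and their part in the results was not tested. In bulk RNA, fewer cells that express a gene and less RNA per cell cannot be told apart.

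Counts of the alpha and gamma members were not independent of each other. In the first control library, 21 of the 22 gamma members lay between 1054 and 1125 reads, and PCDHGC3 alone stood higher, at 1369. The smallest gamma count in a library, called the shared count here, was 1054 and 1028 in the controls, 675 and 445 with 18 kDa FGF2, and 476 and 431 with 22.5 kDa FGF2. It made up 97.3% to 97.7% of all gamma member counts. In the GENCODE 29 annotation all 22 gamma members have 2181 exonic bases in common, all 15 alpha members 2866, and the beta members 0. The alpha shared count was 7 and 11, 9 and 9, and 3 and 5 in the 3 groups, or 68.2% to 89.4% of alpha member counts. The near-equal counts are what counting a read of the common exons for every member would give, but the sources used here do not give the counting rule. Reads beyond the shared count are called a member's own reads below, and the member with the smallest count has 0 of them by construction. Exonic bases common to only some members were not set apart, so a read there may be an own read of several members. PCDHGA8 has 8661 exonic bases and PCDHGB4 6906, of which 4214 and 2459 are in no other gamma member and 2181 are in all 22. Own reads of such members need not be separate.

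**Figure D1:**
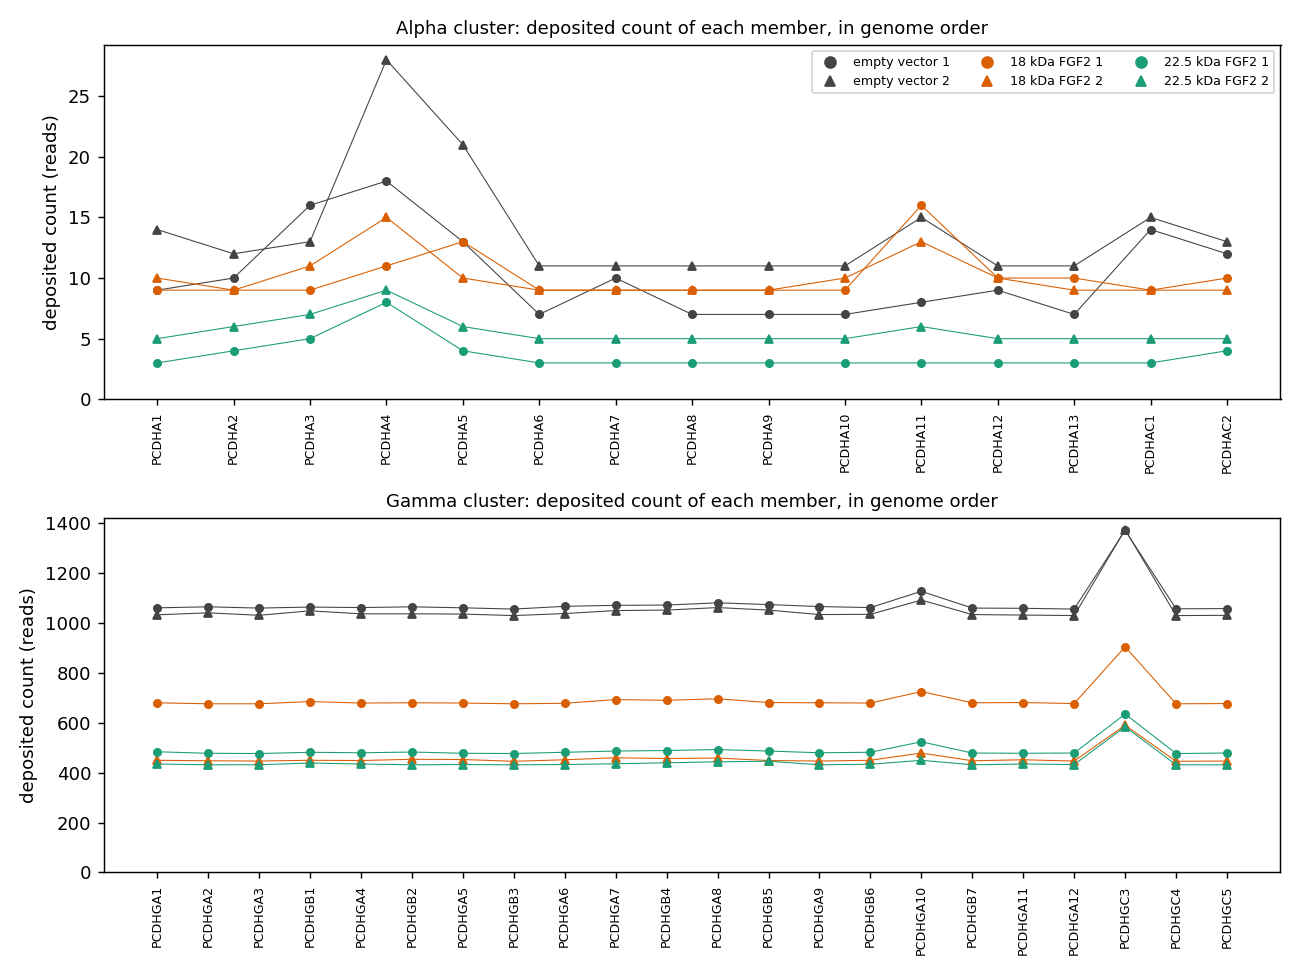
Deposited counts (reads) of the 15 alpha members (top) and 22 gamma members (bottom) in genome order, with 1 line per library, circles for replicate 1 and triangles for replicate 2 (the controls are named by their empty vector). Within a library the gamma members form a flat line, from which PCDHGC3 and, less so, PCDHGA10 rise, and in the gamma panel both control lines lie above the 4 FGF2 lines.

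With 18 kDa FGF2, 26 of the 38 members with enough counts to be tested passed in edgeR's quasi-likelihood test, each of them lower than in the controls. They were 22 of 22 gamma, 4 of 8 beta and 0 of 8 alpha members. With 22.5 kDa FGF2, 31 passed, again each of them lower: 22 gamma, 7 beta and 2 alpha members. Over all 13124 genes tested, 4.79% passed lower and 4.09% higher with 18 kDa FGF2, and 5.88% lower and 5.02% higher with 22.5 kDa FGF2. The median log2 fold change of the tested members was -1.06 and -1.27, against -0.05 and 0.01 over all genes. These counts and medians hold the gamma measurement 22 times. With the shared reads as 1 feature, 7 of 16 features passed with 18 kDa and 9 of 16 with 22.5 kDa FGF2, each of them lower. The filter on low counts asks for 2 libraries at its cutoff, and 11 of the 38 tested members reached it only through the controls, with fewer than 2 FGF2 libraries there (PCDHA2, PCDHA3, PCDHA4, PCDHA5, PCDHA7, PCDHAC1, PCDHAC2, PCDHB6, PCDHB14, PCDHB15 and PCDHB16). A difference in them is partly built in.

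The gamma cluster gave the most abundant signal of the family. The shared count was 188.5 and 192.9 CPM in the controls, 103.6 and 78.2 CPM with 18 kDa FGF2, and 72.7 and 86.4 CPM with 22.5 kDa FGF2. Both control libraries lay above the 4 FGF2 libraries, and the FGF2 groups overlapped each other. The mean fell from 190.7 ± 3.13 CPM to 90.9 ± 18.0 CPM with 18 kDa FGF2 (SD, n = 2), a level 2.07-fold lower than in controls (log2 fold change -1.05, SE 0.23, edgeR adjusted p = 0.00115). With 22.5 kDa FGF2 it fell to 79.5 ± 9.69 CPM, 2.42-fold lower (log2 fold change -1.28, SE 0.23, edgeR adjusted p = 7.26e-05). When any 1 of the 6 libraries was left out, the log2 fold change ranged from -1.26 to -0.83 with 18 kDa FGF2 and from -1.39 to -1.15 with 22.5 kDa FGF2, and the edgeR adjusted p reached at most 0.0328 and 0.0176. Fitted one by one on the deposited counts, the 22 gamma members had log2 fold changes of -1.09 to -1.05 and of -1.28 to -1.23, the narrow range that their common reads give.

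Own reads differed widely between gamma members. PCDHGC3, a C-type member, had 315 and 344 own reads in the controls, 228 and 144 with 18 kDa FGF2, and 158 and 152 with 22.5 kDa FGF2. Its own reads were lower in all 4 FGF2 libraries than in either control library, by 0.98 on the log2 scale with 18 kDa FGF2 (log2 fold change -0.98, SE 0.26, edgeR adjusted p = 0.00889) and by 1.16 with 22.5 kDa FGF2 (-1.16, SE 0.26, edgeR adjusted p = 0.00154). The 18 kDa call was lost without control replicate 1 (0.0552) or 2 (0.179) or 18 kDa replicate 2 (0.106), and the 22.5 kDa call without control replicate 2 (0.0737) or 22.5 kDa replicate 1 (0.0768). PCDHGC3 held 58.7% ± 0.92 of all own gamma reads in the controls, 57.2% ± 4.88 with 18 kDa FGF2 and 59.9% ± 9.19 with 22.5 kDa FGF2 (SD, n = 2). Its share of own reads thus differed between groups by less than the SD of either FGF2 group, though by more than that of the controls, while its level fell.

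PCDHGA10, an A-type member, came next with 71 and 62 own reads in the controls, 49 and 33 with 18 kDa FGF2 and 47 and 18 with 22.5 kDa FGF2. Its lowest library was 22.5 kDa replicate 2, and no FGF2 library reached the controls. Its fit did not pass (log2 fold change -0.85, SE 0.41, edgeR adjusted p = 0.224 with 18 kDa, and -1.16, SE 0.42, edgeR adjusted p = 0.0603 with 22.5 kDa FGF2), with an adjusted p of 0.0383 to 0.387 for 22.5 kDa FGF2 over the fits that left out 1 library. Its share of own reads was 11.9% ± 1.69, 12.7% ± 0.508 and 11.9% ± 5.67 in the 3 groups.

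PCDHGB5, a B-type member, differed from the other gamma members tested on own reads in how the FGF2 groups compared. It had 18 and 22 own reads in the controls, 5 and 3 with 18 kDa FGF2, and 10 and 14 with 22.5 kDa FGF2, so that the 3 groups did not overlap and the 18 kDa group was the lowest. It passed with 18 kDa FGF2 (log2 fold change -2.43, SE 0.60, edgeR adjusted p = 0.00457) and not with 22.5 kDa FGF2 (-0.80, SE 0.51, adjusted p = 0.37). The difference between the isoform groups did not pass either (1.64, SE 0.64, adjusted p = 0.228). The 18 kDa call was lost without control replicate 2 (0.0658) or 18 kDa replicate 2 (0.0564), and these own reads reached the filter only through the controls.

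The remaining gamma members had few own reads. PCDHGA8 had 25 and 32, 20 and 13, and 16 and 12 own reads in the 3 groups, PCDHGB4 had 16 and 22, 14 and 11, and 12 and 8, and PCDHGA7 had 15 and 20, 17 and 14, and 10 and 4. None of these 3 passed on own reads. PCDHGA2 had 9 and 11 own reads in the controls and 0, 2, 1 and 0 in the FGF2 libraries, too few to be tested. Untested members did not all show this drop. PCDHGA1 had 5 and 3, 4 and 4, and 7 and 3 own reads in the 3 groups, and PCDHGA11 had 3 and 2, 5 and 6, and 1 and 3. In all, 17 gamma members had at least 10 own reads over the 6 libraries and 5 had fewer. Among the latter were the other C-type members, PCDHGC4 with a single own read, in control replicate 1, and PCDHGC5 with 0 to 2 per library. Per kilobase of exon, the level of the shared reads was 87.4, 41.7 and 36.5 CPM in the 3 groups, against 21.2, 10.6 and 9.58 CPM for own reads of PCDHGC3 and 2.73, 1.49 and 1.21 CPM for those of PCDHGA10.

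**Figure D2:**
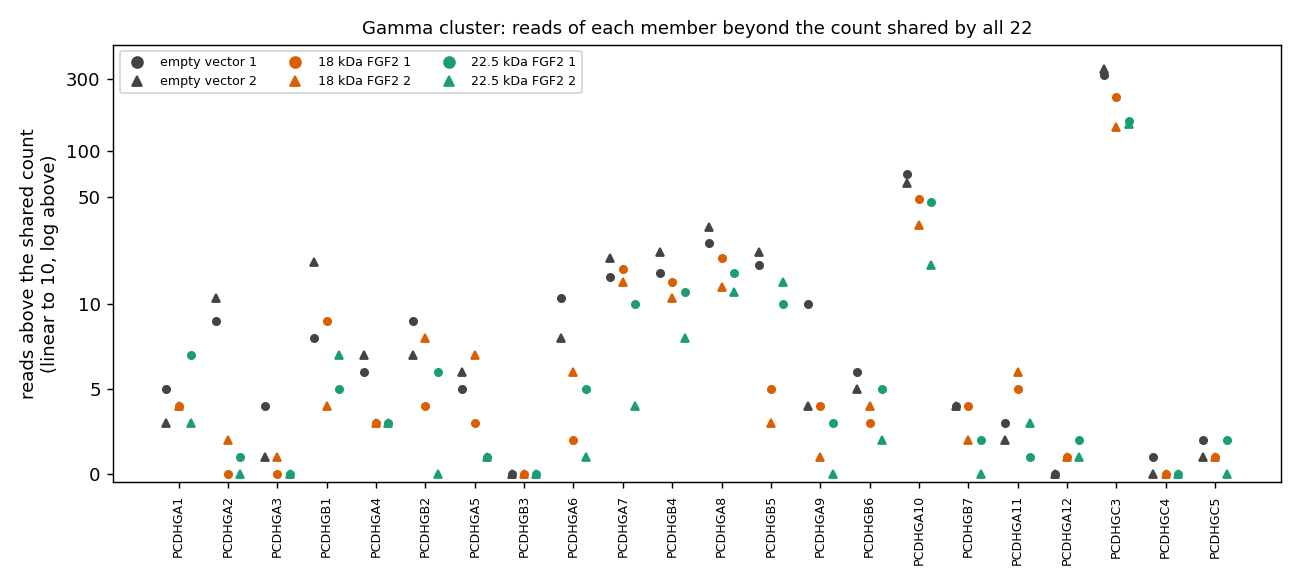
Reads of each gamma member beyond the shared count in each library (vertical axis linear up to 10 reads and logarithmic above), in genome order. PCDHGC3 stands highest in every library, at 144 to 344 reads, followed by PCDHGA10 at 18 to 71, and both are lower in the 4 FGF2 libraries than in either control library.

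Beta members share no exons, so they come closest to being measured gene by gene. Stretches of some do occur in other beta members, as given below for PCDHB8. Summed over all 15, their level in the control, 18 kDa and 22.5 kDa groups was 101.5 ± 1.12, 40.6 ± 4.0 and 26.7 ± 3.97 CPM (SD, n = 2), which is 2.50-fold and 3.81-fold lower than the controls. The 3 groups did not overlap in this sum, at 100.7 and 102.3, 43.4 and 37.8, and 29.5 and 23.9 CPM. Per kilobase of exon, PCDHB5 had the highest level in the controls (8.64 CPM), followed by PCDHB2 (6.07), PCDHB8 (3.80), PCDHB13 (2.50) and PCDHB16 (1.83). With either isoform PCDHB2 stood first in this order, at 3.93 CPM per kilobase with 18 kDa and 2.20 with 22.5 kDa FGF2, and PCDHB5 was at 2.10 and 1.39. The level of PCDHB5 in the controls exceeded that of PCDHB2 by more than the spread between replicates (SD 0.618 and 0.740). In the FGF2 groups PCDHB2 exceeded PCDHB5 by more than their SD (1.23 and 0.166 with 18 kDa, 0.183 and 0.382 with 22.5 kDa FGF2).

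PCDHB5 had 173 and 149 counts in the controls, 44 and 43 with 18 kDa FGF2, and 37 and 19 with 22.5 kDa FGF2. Every FGF2 library lay far below both control libraries, and the FGF2 groups did not overlap. It fell from 29.4 ± 2.11 CPM to 7.15 ± 0.567 CPM with 18 kDa FGF2, 4.11-fold lower (log2 fold change -2.04, SE 0.36, edgeR adjusted p = 0.000339), and to 4.73 ± 1.30 CPM with 22.5 kDa FGF2, 6.14-fold lower (-2.62, SE 0.37, edgeR adjusted p = 2.38e-05). It was the beta member that kept both calls under each alternative run, with an adjusted p of at most 0.00500 and 0.0127.

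PCDHB2 showed a graded pattern. It had 128 and 145 counts in the controls, 129 and 72 with 18 kDa FGF2, and 56 and 48 with 22.5 kDa FGF2. In CPM (22.9 and 27.2, 19.8 and 12.7, 8.55 and 9.62) the 3 groups did not overlap, and 18 kDa replicate 1 lay close to the controls. It did not pass with 18 kDa FGF2 (log2 fold change -0.62, SE 0.33, edgeR adjusted p = 0.301) and passed 2.76-fold lower with 22.5 kDa FGF2 (-1.46, SE 0.34, edgeR adjusted p = 0.00538). That call was lost without control replicate 2 (0.0799) or 22.5 kDa replicate 1 (0.0793) or 2 (0.0760). The difference between the isoform groups did not pass (-0.84, SE 0.34, adjusted p = 0.294).

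PCDHB16 had 52 and 48 counts in the controls, 11 and 10 with 18 kDa FGF2, and 22 and 6 with 22.5 kDa FGF2. The control libraries were the highest, and the 22.5 kDa libraries lay on either side of the 18 kDa libraries. PCDHB16 reached the filter only through the controls, so a difference in it is partly built in. It fell 5.26-fold with 18 kDa FGF2 (log2 fold change -2.40, SE 0.49, edgeR adjusted p = 0.00172) and 3.86-fold with 22.5 kDa FGF2 (-1.95, SE 0.47, edgeR adjusted p = 0.00675). The latter was lost without 22.5 kDa replicate 2 (log2 fold change -1.43, adjusted p = 0.130) and was larger without 22.5 kDa replicate 1 (-2.91).

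PCDHB8 had 64 and 50, 26 and 17, and 20 and 11 counts in the 3 groups, with both control libraries above the other 4. It passed with 18 kDa FGF2 (log2 fold change -1.57, SE 0.42, edgeR adjusted p = 0.0178) and with 22.5 kDa FGF2 (-1.96, SE 0.44, edgeR adjusted p = 0.00344). The first call was lost with DESeq2 (0.0722), without control replicate 1 (0.175) and without 18 kDa replicate 2 (0.0878), the second without 22.5 kDa replicate 2 (0.0852). Of all 101-base stretches of PCDHB8 exon, 25.4% also occur in another beta member, as do 24.6% in PCDHB10, 15.0% in PCDHB13 and 11.1% in PCDHB2, against 6.30% in PCDHB16 and 2.41% in PCDHB5. The split of reads among the former genes is therefore uncertain.

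PCDHB6 had 13 and 22 counts in the controls, 2 and 0 with 18 kDa FGF2, and 3 and 1 with 22.5 kDa FGF2. The ratio of scaled counts, controls over 18 kDa, was 19.6 (exact 95% interval 5.03 to 168, counting error only). It passed with both isoforms (edgeR adjusted p = 0.00125 and 0.00458), with log2 fold changes that depend on the prior count at so few reads. PCDHB6 reached the filter only through the controls. With DESeq2 neither call held (adjusted p = 0.0539 and 0.112), and the 22.5 kDa call was also lost without control replicate 2 (0.0755) or 22.5 kDa replicate 1 (0.0732) or 2 (0.134).

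PCDHB13, PCDHB14 and PCDHB15 were lower to a smaller extent or at lower counts. PCDHB13 went from 67 and 71 counts to 44 and 36 with 18 kDa FGF2 and 30 and 24 with 22.5 kDa FGF2, and its 3 groups did not overlap in CPM. It passed with 22.5 kDa FGF2 alone (log2 fold change -1.43, SE 0.40, edgeR adjusted p = 0.0181), and that call was lost without control replicate 1 (0.0852) or 2 (0.142) or 22.5 kDa replicate 1 (0.117) or 2 (0.110). PCDHB15, with 12 and 25, 5 and 10, and 6 and 1 counts, passed with 22.5 kDa FGF2 (-2.47, SE 0.68, edgeR adjusted p = 0.0181) but not with DESeq2 (0.149), nor without control replicate 2 (0.257) or 22.5 kDa replicate 1 (0.0600) or 2 (0.227), where its log2 fold change was -1.81, -3.95 and -1.85. PCDHB14, with 25 and 16, 10 and 16, and 11 and 6 counts, passed in neither comparison (-0.79, SE 0.50, adjusted p = 0.405 and -1.34, SE 0.53, adjusted p = 0.111). PCDHB14 and PCDHB15 reached the filter only through the controls.

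The other 7 beta members, PCDHB1, PCDHB3, PCDHB4, PCDHB7, PCDHB10, PCDHB11 and PCDHB12, were too low to be tested, with 0 to 11 counts per library. PCDHB10, the highest of them, had 11 and 7 counts in the controls, 5 and 5 with 18 kDa FGF2, and 6 and 1 with 22.5 kDa FGF2. PCDHB1 had 1 count in each control library and 0 in the 4 FGF2 libraries, where a difference was not detectable at this depth.

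**Figure D3:**
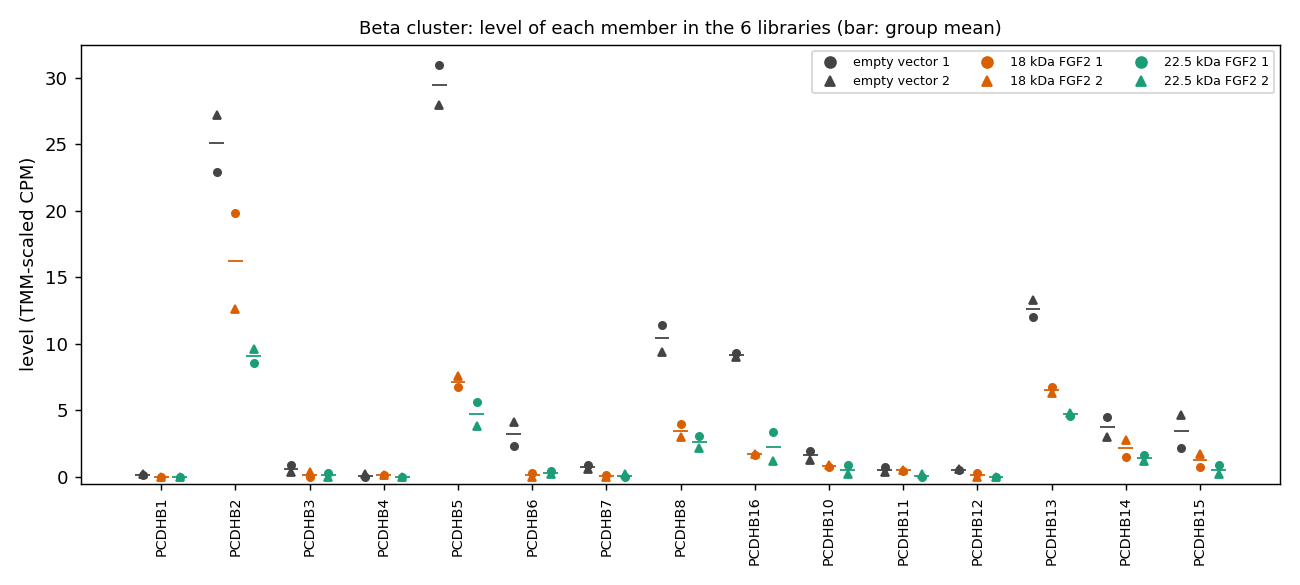
Level of each of the 15 beta members in TMM-scaled CPM in the 6 libraries, in genome order, with a bar at the mean of each group of 2. PCDHB5 shows the widest gap, with control libraries at 27.96 and 30.9 CPM and FGF2 libraries at 3.81 to 7.55 CPM, and members such as PCDHB1 and PCDHB4 lie near 0 in all 6.

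The alpha cluster was close to the limit of detection. No alpha member exceeded 28 counts in a library. Counted once, its shared and own reads summed to 10.1 ± 0.084, 4.11 ± 0.393 and 2.40 ± 0.581 CPM in the control, 18 kDa and 22.5 kDa groups (SD, n = 2), 2.45-fold and 4.20-fold lower. The shared reads alone were at 1.66 ± 0.574, 1.48 ± 0.141 and 0.730 ± 0.385 CPM. With 18 kDa FGF2 they thus differed from the controls by less than the control SD, and the lower sum there came from own reads. The summed member counts, which take the shared reads 15 times, gave 33.3 ± 8.13, 24.9 ± 2.37 and 12.6 ± 5.97 CPM, so the size of the difference depended on how shared reads were taken, most of all with 18 kDa FGF2.

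Own alpha reads were 49 and 43 in the controls, 16 and 16 with 18 kDa FGF2, and 10 and 9 with 22.5 kDa FGF2. PCDHA4 had the most of them, 11 and 17, 2 and 6, and 5 and 4 in the 3 groups, with both control libraries above the rest. PCDHA4 reached the filter on these reads only through the controls and did not pass (log2 fold change -1.91, SE 0.65, edgeR adjusted p = 0.0512 with 18 kDa FGF2, against -1.70 with SE 0.63 and adjusted p = 0.0748 for 22.5 kDa). PCDHA11 went another way, with 1 and 4 own reads in the controls, 7 and 4 with 18 kDa FGF2 and 0 and 1 with 22.5 kDa FGF2.

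The C-type members PCDHAC1 and PCDHAC2 had 7 and 4, and 5 and 2, own reads in the controls, and together 2 in the 4 FGF2 libraries. PCDHAC1 and PCDHA5 reached the filter only through the controls. On the deposited counts PCDHAC1 (14 and 15, 9 and 9, 3 and 5 counts) and PCDHA5 (13 and 21, 13 and 10, 4 and 6 counts) passed with 22.5 kDa FGF2 (edgeR adjusted p = 0.0455 and 0.0461). Both calls were lost with DESeq2 (0.316 and 0.285) and without either control library or either 22.5 kDa library (0.107 to 0.309 for PCDHAC1 and 0.0628 to 0.404 for PCDHA5).

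Between the isoforms, 0 of the 38 tested members passed in edgeR's test or with DESeq2. Over all genes 1.58% passed in this comparison. The median log2 fold change of the members was -0.20 against 0.02 over all genes. By cluster it was -1.01 for 8 alpha, -0.51 for 8 beta and -0.20 for 22 gamma members. The gamma members repeat 1 measurement, and the alpha members also share reads. The gamma shared reads differed by -0.23 on the log2 scale (SE 0.23, edgeR adjusted p = 0.735). The summed beta level with 22.5 kDa FGF2 was 0.657 times that with 18 kDa FGF2. Leaving out 18 kDa replicate 2 brought PCDHB2 past the threshold. The comparisons with the controls use the same 2 control libraries, so their values stand side by side and not as separate evidence.

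Genes on either side of the clusters were measured too. Of the 10 tested protein-coding genes before and 10 after the clusters, and TAF7, a subunit gene of the basal transcription factor TFIID that lies between the beta and gamma clusters, 0 of 21 passed with 18 kDa FGF2. With 22.5 kDa FGF2 1 was lower and 1 higher, near the 5.88% and 5.02% of all genes. Their median log2 fold change was 0.04 with 18 kDa and 0.03 with 22.5 kDa FGF2. TAF7 itself did not pass (-0.36 and -0.05). DIAPH1, a formin gene next to the gamma cluster, was lower with 22.5 kDa FGF2 (log2 fold change -0.75, SE 0.23, edgeR adjusted p = 0.0319), a call lost without any 1 of the 4 libraries compared (0.116 to 0.277). ARAP3, a GTPase-activating protein gene, rose with 22.5 kDa FGF2 (1.84, SE 0.34, edgeR adjusted p = 0.000494) and against 18 kDa FGF2 (1.66, SE 0.33, edgeR adjusted p = 0.00594, lost without 22.5 kDa replicate 1 at 0.0946 or 2 at 0.154).

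**Figure D4:**
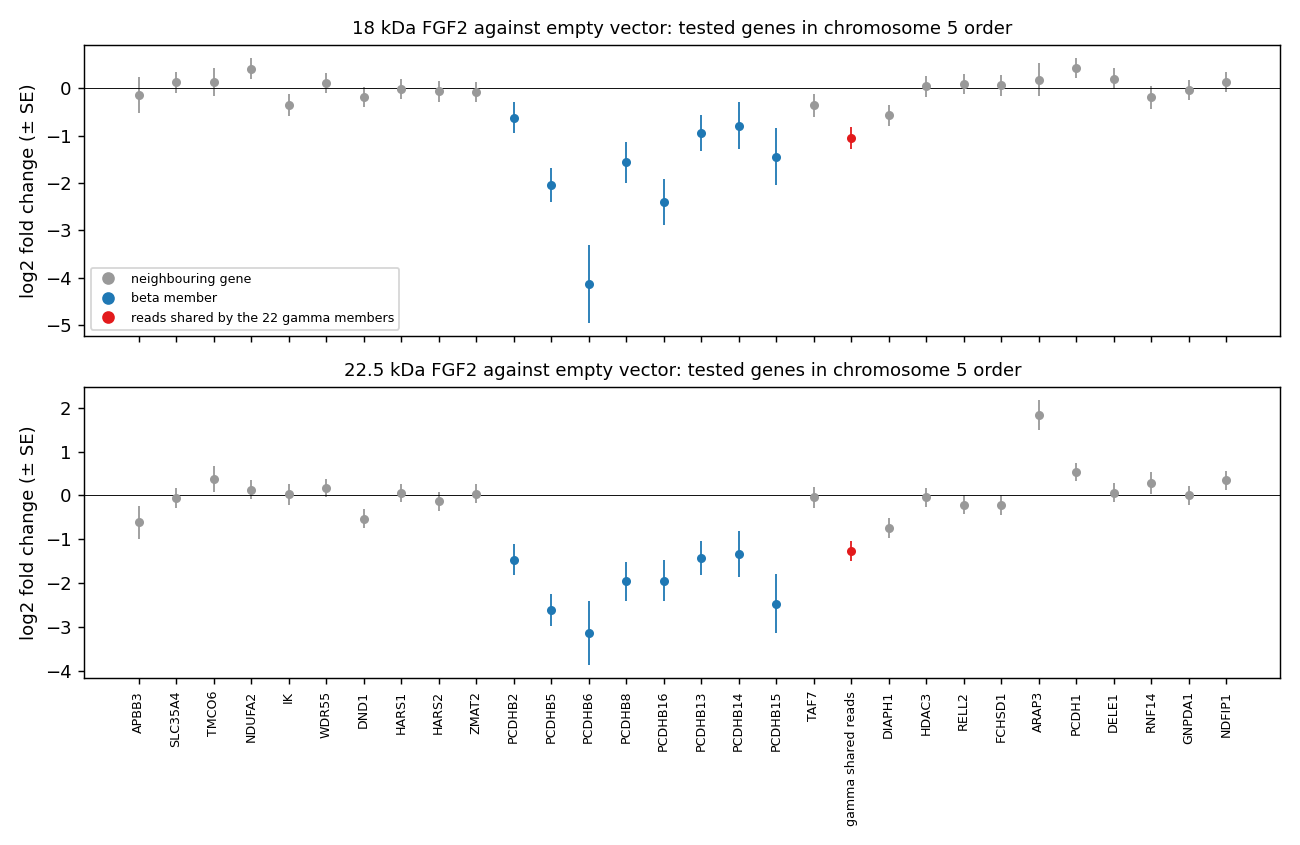
Log2 fold change (± SE) against the controls of the 21 tested neighbouring genes (grey), the 8 tested beta members (blue) and the reads shared by the gamma members (red) in their order along chromosome 5, with 18 kDa FGF2 above and 22.5 kDa FGF2 below. The blue and red points lie below 0 in both panels, and the grey points lie on both sides of 0, with ARAP3 at 1.84 in the lower panel.

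Genes known to control or accompany the clustered protocadherins mostly did not pass. Of 11 tested CTCF and cohesin genes, 0 passed in each of the 3 comparisons. Their median log2 fold change was -0.30 with 18 kDa and -0.17 with 22.5 kDa FGF2, against -0.05 and 0.01 over all genes. CTCF, the insulator protein gene, was at 83.6 ± 10.5, 68.4 ± 2.13 and 68.3 ± 9.26 CPM in the 3 groups (SD, n = 2, log2 fold change -0.29 and edgeR adjusted p = 0.51 with 18 kDa, -0.29 and 0.475 with 22.5 kDa FGF2). The cohesin gene RAD21 (-0.52, SE 0.48, and -0.24, SE 0.48) and the silencing gene SMCHD1 (-0.37, SE 0.59, and 0.24, SE 0.58) did not pass. RAD21 was at 44.1 and 110.3 CPM in the 18 kDa libraries, and with such a spread a difference could be missed. Over all genes, 4.09% were higher and 4.79% lower with 18 kDa FGF2 and 5.02% and 5.88% with 22.5 kDa FGF2, so 1 or 2 genes of a list of this size are near the background. Of 21 tested genes of silencing and DNA methylation, 1 rose and 0 fell with each isoform. It was DNMT3B, a de novo DNA methyltransferase gene, at 51.9 ± 4.62 CPM in the controls, 124.3 ± 27.0 with 18 kDa FGF2 (log2 fold change 1.26, SE 0.22, edgeR adjusted p = 0.000391) and 100.9 ± 5.81 with 22.5 kDa FGF2 (0.96, SE 0.22, edgeR adjusted p = 0.00486). The latter call was lost without control replicate 1 (0.125) or 22.5 kDa replicate 2 (0.0621). DNA methylation was not measured.

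Of 18 tested genes of intracellular partners and processing enzymes, 1 rose and 1 fell with 18 kDa FGF2 and 2 rose and 0 fell with 22.5 kDa FGF2. Among all tested genes 4.09% rose and 4.79% fell with 18 kDa FGF2, and 5.02% and 5.88% with 22.5 kDa FGF2. RET, a receptor kinase known to bind protocadherins, rose by 2.42 (SE 0.29) and 2.90 (SE 0.30) on the log2 scale (edgeR adjusted p = 3.3e-06 and 2.19e-07). CYFIP2, a subunit gene of the WAVE actin regulatory complex that clustered protocadherins can bind, rose with 22.5 kDa FGF2 (1.72, SE 0.25, edgeR adjusted p = 2.88e-05) and against 18 kDa FGF2 (1.65, SE 0.25, edgeR adjusted p = 0.000214, lost without 22.5 kDa replicate 2 at 0.0633). ABI2, another WAVE complex gene, fell with 18 kDa FGF2 (-0.73, SE 0.23, edgeR adjusted p = 0.0461), a call lost with DESeq2 (0.0596), in a fit of only the groups compared (0.0581), with the replicate block (0.0568), with shared reads counted once (0.0515) and when any 1 of the 6 libraries was left out (0.0504 to 0.315).

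Protocadherins encoded outside the clusters were mostly too low to be tested, with 3 of 20 genes of that list passing the filter. PCDH1, which lies near the gamma cluster, was at 157.5 ± 0.70, 212.1 ± 12.3 and 228.2 ± 33.6 CPM and did not pass (log2 fold change 0.43 and 0.53). PCDH7, which reached the filter only through the controls, had 36 counts in the controls together, 2 with 18 kDa and 1 with 22.5 kDa FGF2, and passed with both (edgeR adjusted p = 0.00105 and 0.0005, lost for 18 kDa with DESeq2 at 0.0588 and for 22.5 kDa without 22.5 kDa replicate 2 at 0.0603). PCDH9, which reached it only through the 22.5 kDa libraries, had 4, 0 and 23 counts in the 3 groups and passed with 22.5 kDa FGF2 (edgeR adjusted p = 0.0353) and against 18 kDa FGF2 (0.0032), both lost with DESeq2 (0.394 and 0.0981) and without 22.5 kDa replicate 2 (0.180 and 0.135), the first also without control replicate 1 (0.261) or 2 (0.210) and the second without 18 kDa replicate 1 (0.0813). Of 7 tested classical cadherin and catenin genes, 1 rose and 0 fell with each isoform, beside 4.09% and 5.02% of all genes higher. It was CDH3, the P-cadherin gene (log2 fold change 1.63, SE 0.24, edgeR adjusted p = 3.34e-05 with 18 kDa FGF2, against 1.35 with SE 0.23 and adjusted p = 0.000257 for 22.5 kDa).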

How the data were processed

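RNA of 6 T47D-YA libraries, 2 per group, was sequenced from directional paired-end libraries, per the labels' protocols. The authors deposited unnormalized whole-number counts of reads for each Entrez gene. The submitters' processing notes name hg19 and edgeR. No aligner, counting rule or strand setting is given in the sources used here. Symbols, gene order and promoter windows came from RefSeq (GRCh38) and exon lengths from GENCODE 29.

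All 6 libraries were fitted in 1 model in R 4.3.3 with edgeR 4.0.16 (TMM scaling, filterByExpr by group, robust quasi-likelihood fit, two-sided test, 3 residual degrees of freedom). The filter kept 13124 of 23459 genes, and Benjamini-Hochberg adjustment ran over them. Passing means an adjusted p under 0.05. With 2 libraries per group the smallest exact permutation p is 0.333, and no such test was run. CPM values are TMM-scaled and given as mean ± SD of the 2 libraries. Nothing in the labels says that replicates were separate cultures. The p-values therefore reflect variation among these libraries, which may be technical.

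The members and gene lists were chosen with earlier results of these data known. Named members are those that passed, the highest of each cluster and the C-type members, and named genes of the lists are up to 4 that passed. Members with too few counts to test and those added for contrast (PCDHA11, PCDHB10, PCDHB14 and PCDHGA2 among them) were chosen after their values were seen, as was the split into shared and own reads. The alternatives were DESeq2 1.42.0, its size factors in edgeR, no filter, only the groups compared, a replicate block and leaving out each library in turn.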

Additional observations from a re-analysis of the deposited data

How the results depend on the processing

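The number of members that passed kept within 1.5 times of 26 with 18 kDa and 31 with 22.5 kDa FGF2 under DESeq2 (24 and 27), its size factors, no filter, and fits of only the groups compared. With shared reads counted once, an alternative chosen after seeing the data, it was 7 and 9, because the gamma measurement then enters 1 time. Leaving out 1 library gave 25 to 26, 23 to 32 and, between the isoforms, 0 to 1 members. Members of the gene lists that passed numbered 4 to 8, 3 to 6 and 0 to 5 in those fits, against 5, 6 and 2. A fit without both FGF2 libraries numbered 1 was also chosen after seeing the data and left 1 library in each FGF2 group. Its log2 fold changes with 18 and 22.5 kDa FGF2 were -1.95 and -2.94 for PCDHB5 and -0.98 and -1.37 for PCDHB2. For the deposited counts of PCDHGC3 they were -1.27 and -1.10. The alpha sum with 18 kDa FGF2 over the empty vector was 0.747, and 0.409 with shared reads counted once. The beta ratio was 0.400, and 0.319 without PCDHB2, the member with the highest mean level. Leaving out 1 library gave ratios of 0.372 to 0.428 for beta and 0.411 to 0.544 for gamma with 18 kDa FGF2, and 0.235 to 0.291 and 0.383 to 0.453 with 22.5 kDa FGF2. For the alpha sum they were 0.637 to 0.903 and 0.252 to 0.506, and between the isoforms 0.338 to 0.678 for alpha, 0.588 to 0.726 for beta and 0.768 to 1.02 for gamma. The neighbours' median log2 fold change ranged over -0.09 to 0.13, -0.03 to 0.11 and -0.15 to 0.093. The count of all genes that passed with 18 kDa FGF2, 1165, was 617 or 665 without an empty vector library, and that with 22.5 kDa FGF2, 1431, was 775 or 792 without one of these and 797 or 630 without 22.5 kDa replicate 1 or 2.

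With the replicate block the members that passed were 26, 31 and 0, and all genes 1210, 1523 and 337 against 1165, 1431 and 207. The same-numbered libraries' deviations correlated at -0.271 (empty vector and 18 kDa), 0.387 (empty vector and 22.5 kDa) and -0.413 (18 and 22.5 kDa) over 13124 genes, so the numbers were not taken to pair the libraries. With the 18 kDa numbers swapped, a crossed block chosen after seeing the data, 28, 33 and 1 members passed. All genes that passed in it were 2434, 2910 and 1208, so the background was higher as well.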

Other observations

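The pseudogene PCDHB17P, which lies in the beta cluster and was no member, had 9 and 13 counts in controls, 2 and 2 with 18 kDa FGF2, and 4 and 0 with 22.5 kDa FGF2. The pseudogene PCDHB18P had 2 and 2, 1 and 0, and 3 and 0 counts, and PCDHB19P had 2 and 0 counts in controls and 0 in the 4 FGF2 libraries.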
